A study of Homo sapiens with 6 samples.

Results

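The genes described here encode the proteins of the mitochondrial ribosome. They are the rows of the deposited gene table whose symbol is MRPL or MRPS followed by a number and at most 1 letter. This gave 78 of 58174 rows, 49 with an MRPL symbol and 29 with an MRPS symbol. All 78 passed the filter on low counts that left 19040 genes for testing. RNA was sequenced from PC9, an established human lung adenocarcinoma cell line. Knockdown cells had received an antagomir, a chemically modified antisense strand that binds a small RNA, against tsRNA-5001a, a fragment of a transfer RNA, and control cells a negative control antagomir. Each group had 3 libraries, and these gene counts do not measure tsRNA-5001a itself, so the labels were not checked on it. The labels name no dose, time or separate cultures, and every p-value below reflects only how far these 6 libraries scatter, which may be technical scatter.

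Mitochondrial ribosomes translate the few mRNAs of the mitochondrial genome, all of which encode subunits of the respiratory chain and ATP synthase. Their ribosomal RNAs are made inside the organelle, while every protein of the particle is encoded in the nucleus, translated in the cytosol and imported. Some of these proteins have counterparts in bacterial ribosomes, and others were added during the evolution of mitochondria. Loss of single members is known to cause inherited defects of oxidative phosphorylation.

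Total gene counts ran from 32342017 to 40066223 per library, and the members took between 0.380% and 0.447% of them. The keratin genes KRT7, KRT8, KRT18 and KRT19 were high in every library, from 1975 CPM (KRT19 in knockdown library 2) upward. CPM here are counts scaled to a common library size (counts per 1e+06) after TMM scaling, a correction that assumes most genes keep their level. The lung lineage genes NKX2-1 and NAPSA were low, with at most 0.912 CPM for NKX2-1 and 1.36 to 2.59 CPM for NAPSA. NKX2-1 was at 0.564 to 0.912 CPM after knockdown and 0 to 0.372 in the controls (edgeR adjusted p 0.22). Of 9 markers of other cell types 6 were tested, and 5 of these were on the higher side after knockdown, against 55.9% of all tested genes. In 4 of the 6 every knockdown library was above every control library, against 13.4% of all tested genes. Only PDGFRB rose (0.651 to 1.02 CPM in the controls, 4.30 to 7.55 after knockdown, edgeR adjusted p 0.00502), where 1.1% of all tested genes rose. The summed level of the 9 markers was 58.9 to 77.2 CPM in knockdown and 53.4 to 60.9 CPM in control libraries. Most of it came from the collagen gene COL1A1, at 35.4 to 52.1 CPM over the 6 libraries. PECAM1 was at 9.08 to 10.9 CPM in the controls and 11.4 to 13.4 after knockdown (edgeR adjusted p 0.354). CD14 and VWF were also higher without overlap, while COL1A1 and ACTA2 overlapped. The T cell gene CD3E and the collagen gene COL1A2 were at 0 in all control libraries. The part of these markers in the results was not tested.

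Some short motifs were found more often in the promoters of the members than in those of all genes. RefSeq windows on GRCh38.p14, from 250 bases before to 50 after a start site, were found for 69 members, in 85 windows. The letters AAGATGGC on either strand, a core of the YY1 motif, stood in 27.1% of member windows and in 2.89% of 35116 windows of all genes. CCGGAAGT, the motif of GABPA and other ETS factors, stood in 16.5% against 4.14%. GGGCGG, the SP1 box, stood in 60% against 45%, and CCAAT in 32.9% against 34.6%. The palindrome of NRF1, a factor known for nuclear genes of mitochondria, was in 1 member window, 1.18%, against 1.24% of all windows. The following stretches of 30 bases show YY1 and GABPA matches in members named by rule, in capitals, 5′ to 3′ on the gene's strand, because these members are described further down. In both GABPA stretches the capitals are the reverse complement of the motif, ACTTCCGG.
MRPS30, YY1, chr5:44808949-44808978: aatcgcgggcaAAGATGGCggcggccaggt
MRPS18A, YY1, chr6:43687764-43687793: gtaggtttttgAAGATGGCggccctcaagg
MRPS18B, YY1, chr6:30617852-30617881: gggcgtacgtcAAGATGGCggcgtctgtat
MRPL50, YY1, chr9:101398577-101398606: ggatctcatcgAAGATGGCggcgcgatctg
MRPL45, YY1, chr17:38297170-38297199: tttgcgggaacAAGATGGCagcccccatac
MRPL16, GABPA, chr11:59810767-59810796: gagtgaacacaACTTCCGGccccactgagc
MRPS34, GABPA, chr16:1773136-1773165: ctcttccggtgACTTCCGGccggaccgctg

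The YY1 stretches shown are not all those of the named members, so their positions are given over all members. Of 21 YY1 matches with full flanks in members outside chromosome 8, 17 had the letters on the gene's strand and 15 began after the start site. The 14 GABPA matches had a median first base of -35.5 relative to the start site, and 6 of them were on the gene's strand. Between knockdown and control, the median log2 fold change was -0.17 in the 21 members with the YY1 letters and -0.22 in the 48 without them. For the GABPA letters the medians were -0.23 in 12 members with and -0.19 in 57 without them. These matches are letters in a window, not measured binding sites.

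No member passed the test between knockdown and control, yet most members had fold changes below those of the typical gene. With edgeR's quasi-likelihood test and a threshold of 0.05 on the Benjamini-Hochberg adjusted p, 0 of 78 rose and 0 fell, where 1.17% of all tested genes passed, 0.0735% falling and 1.1% rising. At an unadjusted p under 0.05 there were 21 members, 20 on the lower side and MRPL34 on the higher. The share of all tested genes at that threshold was 6.71% lower and 9.77% higher. DESeq2 called 5 members lower (MRPL55, MRPS2, MRPL23, MRPL9 and MRPL21), against 1.15% of its genes. Limma-voom called 0 members, against 1.16% of all genes. Limma on deposited TPM called 0 members, against 2.09% of all genes, 0.0683% being called lower.

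The log2 fold change, knockdown over control, was below 0 in 66 of 78 members and above 0 in 12. Of all tested genes 44.1% were below 0 and 55.9% above. By library size alone fewer members, 49 of 78, were below 0, against 5660 of 19040 tested genes. On deposited TPM 37 of 78 members were below 0, against 4101 of 19040 genes. That TPM share of all genes also stands beside the TPM counts of the lists further down. TPM are values per transcript length that sum to the same total in every library. The median was -0.20 over members and 0.050 over all tested genes. It was -0.0029 over the 8440 protein-coding genes within the members' range of abundance. On TPM the member median was 0.016 and that of all genes 0.21, and by library size alone they were -0.075 and 0.17. Below the median of all genes lay 70 of 78 members on TMM-scaled counts and 63 on TPM. By library size alone it was 70 too, but a change of library scaling shifts all genes about alike. That count could therefore hardly differ.

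The summed CPM of the members was 4161, 4792 and 4364 in control libraries 1 to 3 and 3741, 3799 and 3851 in knockdown libraries 1 to 3. These groups did not overlap. Summed deposited TPM was 5815, 6002 and 5958 in the controls and 5649, 5916 and 5954 after knockdown, and these groups overlapped. As a share of all counts the members took 0.406%, 0.447% and 0.421% in controls and 0.380%, 0.399% and 0.409% after knockdown, again with overlap. In bulk RNA, fewer cells with these transcripts and less of these transcripts per cell cannot be told apart.

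**Figure D1:**
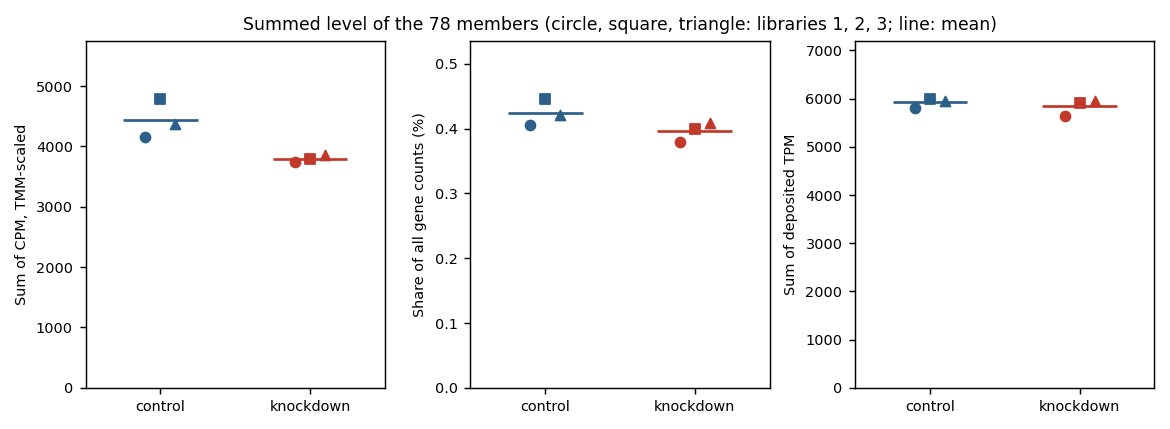
Summed level of the 78 members in each library, as TMM-scaled CPM, as percent of all gene counts and as deposited TPM (vertical axes start at 0; points are libraries, lines are means of 3). The groups are apart in CPM, 3741 to 3851 after knockdown against 4161 to 4792, and overlap on the other scales.

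CPM were lower in every knockdown library than in every control library for 29 of 78 members, where 10.8% of all tested genes showed this. The reverse order was seen for 0 members and for 13.4% of all genes. On TPM the counts were 11 lower and 4 higher, against 2.95% and 27% of all genes. Control library 2 held the highest value of 49 members, and knockdown libraries 1 and 2 held the lowest of 29 and 28.

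**Figure D2:**
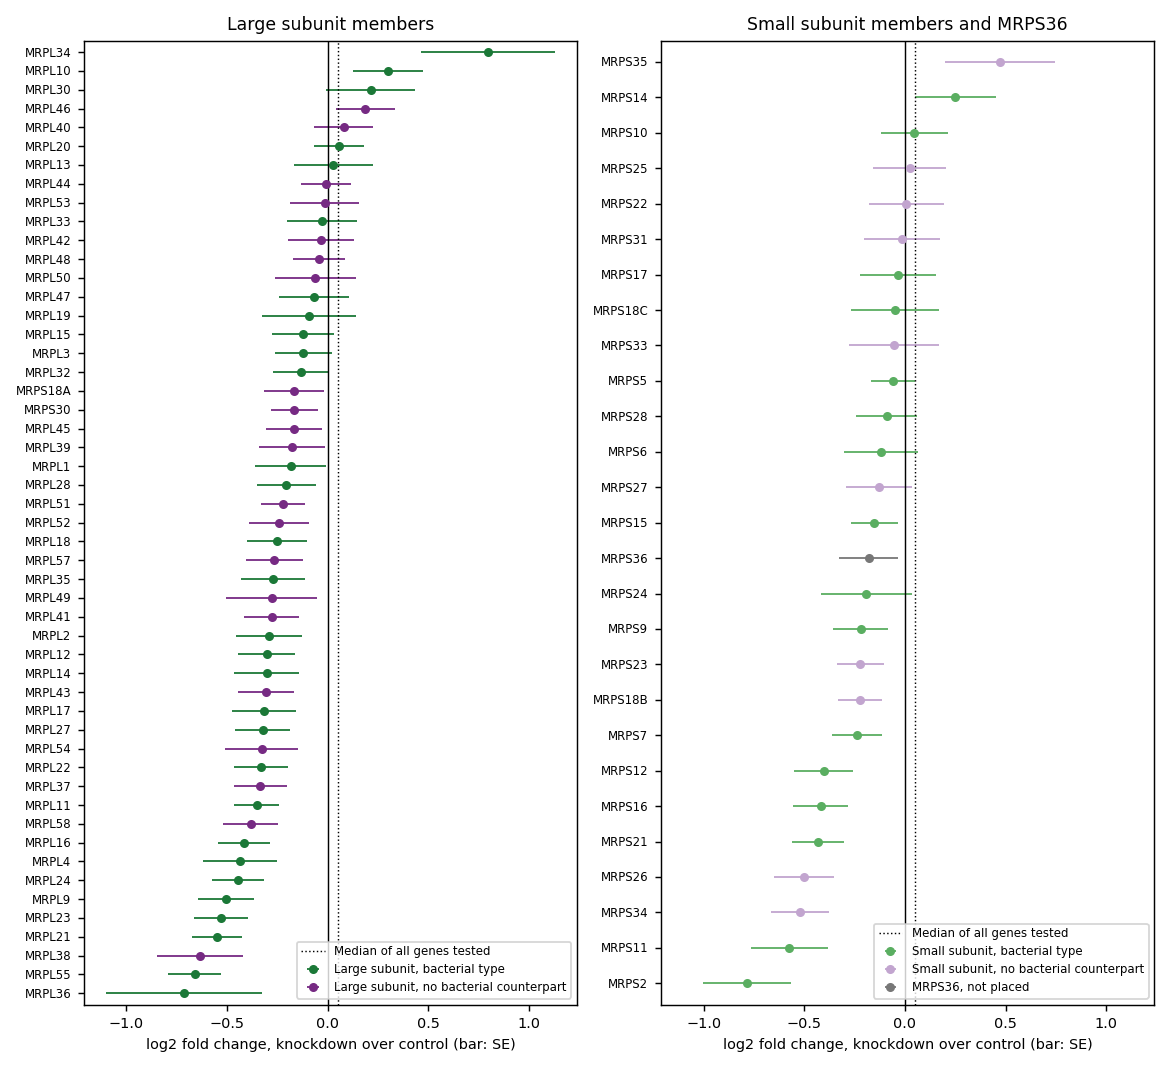
Log2 fold change of each member (points; bars are standard errors) by subunit and by whether bacteria have a counterpart. Most points lie left of 0, from -0.79 for MRPS2 to 0.80 for MRPL34, and the dotted line is the median of all genes tested, 0.050.

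By role, 25 of the 30 large subunit members with a bacterial counterpart were below 0 (16 on TPM), and their median was -0.28. The 21 large subunit members without one had -0.18, with 19 below 0 (8 on TPM). MRPS18A and MRPS30 are counted there, because their proteins sit in the large subunit despite the S of their symbols. Among 16 small subunit members of bacterial type the median was -0.17 and 14 were below 0 (8 on TPM), and among 10 without a counterpart it was -0.091 and 7 were below 0 (5 on TPM). The TPM medians were -0.020, 0.045, 0.020 and 0.018 in that order, all under the 0.21 of all genes. The middle range of all members, from the lower to the upper quartile, held all 4 role medians. Differences between the roles were not tested.

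MRPL55, a large subunit protein, had the lowest p of the members. Its CPM was 39.4, 45.8 and 42.7 in the controls and 26.6, 28.9 and 25.4 after knockdown, with no overlap between the groups. The gene (ENSG00000162910) lies on chromosome 1 at 228106679 to 228109312 on the minus strand. The knockdown level was lower than the control level by more than the spread of either group (log2 fold change -0.66, standard error 0.13, edgeR adjusted p 0.0612). With DESeq2 the adjusted p was 0.00114.

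MRPL21, another large subunit protein gene (ENSG00000197345, chromosome 11, 68891276 to 68903835, minus strand), was at 62.3, 64.6 and 64.6 CPM in the controls. After knockdown it was at 43.4, 39.6 and 47.7 CPM, so the groups were apart by more than their spread (log2 fold change -0.55, standard error 0.12, edgeR adjusted p 0.0911). MRPL9 was at 32.2, 40.8 and 35.5 CPM in the controls and at 26.3, 24.2 and 26.0 after knockdown. Both genes passed with DESeq2 and with GC and length trends removed, but not in edgeR's test without that removal. MRPL9 shares bases with OAZ3 on the other strand and with an unnamed transcript on its own.

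At the mouth of the tunnel through which new protein leaves the large subunit, all 6 members listed (MRPL17, MRPL22, MRPL23, MRPL24, MRPL45 and MRPL47) had a log2 fold change below 0, with a median of -0.32, although MRPL45 and MRPL47 were above 0 on TPM. MRPL23 was at 42.2, 46.2 and 46.0 CPM in the controls and 31.4, 27.6 and 34.1 after knockdown (edgeR adjusted p 0.125). It overlaps an antisense RNA, MRPL23-AS1, and whether counting used strand is not given. MRPL24 had 65.3, 76.8 and 67.6 CPM against 55.1, 47.1 and 52.0. The groups of both genes were separate. MRPL45, whose protein anchors the ribosome to the inner membrane, had 50.5, 59.6 and 57.0 CPM in controls and 47.1, 56.4 and 45.1 after knockdown, and these overlapped. MRPL22 was separate as well, at 48.5, 59.4 and 53.7 against 39.9, 46.1 and 42.6 CPM. Pseudogene rows named for MRPL45 held 3.98% as many counts as the gene itself.

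Of the stalk that recruits translation factors, MRPL11 had 116, 126 and 117 CPM in the controls and 98.4, 86.9 and 95.4 after knockdown, apart from each other (edgeR adjusted p 0.195). MRPL12 had 132, 155 and 145 against 131, 98.1 and 120 CPM. These did not overlap, but the highest knockdown library lay just under the lowest control. MRPL10, which carries MRPL12 on the ribosome, had a fold change above 0, with 77.2, 50.3 and 54.5 CPM in the controls and 71.8, 71.6 and 80.7 after knockdown. Its groups overlapped, with control library 1 at the level of the knockdown libraries (log2 fold change 0.30, edgeR adjusted p 0.432).

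In the small subunit, MRPS2 had the most negative fold change of all members, at -0.79 with a standard error of 0.22 (edgeR adjusted p 0.154). This gene (ENSG00000122140, chromosome 9, 135499984 to 135504673, plus strand) was at 125, 138 and 87.9 CPM in the controls and 50.1, 79.8 and 73.6 after knockdown. The groups did not overlap, though each was wide, and C9orf116 overlaps the gene on the other strand. MRPS34 (ENSG00000074071, chromosome 16, 1771890 to 1773155, minus strand) had 101, 126 and 116 CPM in the controls and 87.8, 67.9 and 83 after knockdown (edgeR adjusted p 0.152). MRPS26 had 73.4, 85.8 and 79.7 against 58.7, 46.2 and 63.9 CPM. For these genes knockdown library 2 was the lowest of its group except in MRPS2, where it was the highest.

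MRPS12, a protein near the decoding centre, had 85.7, 105 and 94.5 CPM in the controls and 78.3, 60.3 and 77.1 after knockdown. MRPS21 had 80.0, 95.2 and 80.9 against 65.4, 57.4 and 66.8, and MRPS16 had 72.0, 88.0 and 83.6 against 65.2, 54.0 and 63.0. None of these groups overlapped. MRPS16 shares bases with DNAJC9 on its own strand, and MRPS12 with SARS2 on the other. In the large subunit MRPL16 was likewise separate, at 51.1, 57.8 and 59.4 CPM against 39.6, 45.2 and 41.4. Adjusted p for these 4 genes were 0.173 to 0.236 with edgeR. MRPL58, a peptidyl-tRNA hydrolase built into the large subunit, had 33.5, 38.3 and 37.1 CPM in the controls and 25, 28.4 and 30.2 after knockdown (edgeR adjusted p 0.23).

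The MRPS18 paralogues, whose proteins occupy different sites of the ribosome, differed in whether their groups overlapped. MRPS18B had 81.0, 87.5 and 85.8 CPM in the controls and 71.0, 72.8 and 73.8 after knockdown, without overlap. MRPS18A had 78.8, 89.2 and 89.0 against 86.6, 62.3 and 80.0, and MRPS18C 15.9, 22.6 and 14.8 against 14.2, 21.2 and 16.1, both with overlap. Log2 fold changes were -0.22, -0.17 and -0.050 for MRPS18B, MRPS18A and MRPS18C, the latter pair above 0 on TPM, and differences between them were not tested. For MRPS30 the CPM were 72.6, 72.8 and 79.0 in the controls and 62.9, 71.4 and 65.6 after knockdown, just apart. MRPS36, whose protein is now known as part of the oxoglutarate dehydrogenase complex, had 16.5, 20.1 and 17.4 against 15.4, 15.2 and 17.0 CPM, with overlap.

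Of 6 members at the central protuberance, a ridge at the top of the large subunit, 4 were below 0 and the median was -0.15, against 3 and 0.10 on TPM. MRPL38 had 48.3, 68.7 and 70.5 CPM in the controls and 47.9, 29.7 and 43.0 after knockdown, barely apart (log2 fold change -0.64, edgeR adjusted p 0.211). MRPL40 and MRPL46 were above 0, at 0.080 and 0.19, and overlapped. In the small subunit MRPS11, a protein of the platform, had 36.2, 39.8 and 38.4 CPM against 33.6, 21.7 and 21.6, without overlap (log2 fold change -0.57, edgeR adjusted p 0.209). In MRPS11 knockdown library 1 lay near the controls. MRPL22, MRPL38, MRPL40, MRPL46 and MRPS11 were named after their values were seen.

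MRPL34, a small protein of the large subunit, had the highest fold change. It had 42.4, 39.4 and 43.6 CPM after knockdown, and 39.7, 14.9 and 17.7 in the controls. Control library 1 was thus at the level of the knockdown libraries, and the other two controls were far below (log2 fold change 0.80, standard error 0.33, edgeR adjusted p 0.284). Without control library 1 the fold change was 1.36 and the edgeR adjusted p 0.0254, where 0.533% of all genes rose. Of the 6 fits that each left out 1 library, no other called a member. The gene (ENSG00000130312, chromosome 19, 17292609 to 17306843, plus strand) overlaps ABHD8 on the other strand. ABHD8 was at 69.1, 72.3 and 63.3 CPM in the controls and 69.6, 56.9 and 71.4 after knockdown, with no gap between control library 1 and the other controls. MRPS35 had the next highest fold change, 0.47, but its knockdown libraries ran from 56.5 over 95.6 to 136 CPM, and the controls lay between 65.7 and 75.6.

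**Figure D3:**
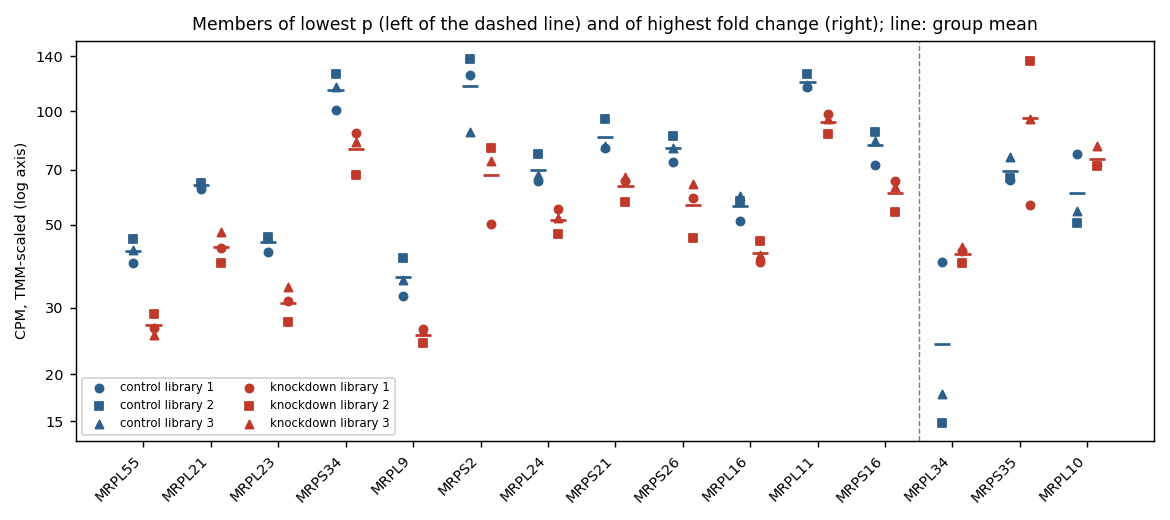
CPM in each library (log axis; points are libraries, short lines group means) for the 12 members of lowest p and the 3 of highest fold change. In the first 12 the groups do not overlap; in MRPL34 control library 1, at 39.7 CPM, lies with the knockdown libraries.

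The promoter stretches of MRPL55, the member of lowest p, and MRPL34, the member of highest fold change, are given from 150 bases before to the base before the RefSeq start site, with SP1 boxes in capitals, 5′ to 3′ on the gene's strand on GRCh38.p14. MRPL55 holds 4 of these boxes and MRPL34 holds 3, and neither window has the YY1 or GABPA letters.
MRPL55, chr1:228109300-228109449, minus strand: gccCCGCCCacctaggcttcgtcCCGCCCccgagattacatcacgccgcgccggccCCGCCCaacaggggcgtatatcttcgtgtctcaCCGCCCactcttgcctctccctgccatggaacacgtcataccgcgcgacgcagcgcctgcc
MRPL34, chr19:17292423-17292572, plus strand: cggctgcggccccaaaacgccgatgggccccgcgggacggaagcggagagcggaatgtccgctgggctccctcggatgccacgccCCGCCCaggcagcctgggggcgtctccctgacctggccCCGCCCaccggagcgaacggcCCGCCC

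The fold change of the members went with the GC content of their longest transcript. The 11 members of at least 60% GC were all below 0 (10 on TPM), their median being -0.50 on the log2 scale. The 47 between 42% and 60% had a median of -0.22, and the 20 under 42% one of -0.057, with 14 below 0 (2 on TPM). Over all tested genes in the same GC classes the medians were -0.030, 0.026 and 0.15. Across the 78 members Pearson's r between GC content and fold change was -0.49, and Spearman's rho -0.58. Genes are not independent replicates, and all points come from the same 6 libraries.

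Knockdown library 2 differed from the other knockdown libraries in the same order. The log2 ratio of that library to the mean of knockdown libraries 1 and 3 had a median of -0.33 in the 11 members of high GC, of which 1 was above 0. In the 20 of low GC the median was 0.41, and 17 were above 0. Across members this ratio had r = -0.62 with GC content. Without knockdown library 2, r between fold change and GC content was -0.23, while the member median was -0.23 and 69 members were below 0. Removing the trends with GC and length from each library left a member median of -0.21 against -0.0054 for all genes. With those trends removed 6 members passed as lower, namely MRPL9, MRPL11, MRPL21, MRPL24, MRPS26 and MRPS34, against 1.37% of all genes.

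**Figure D4:**
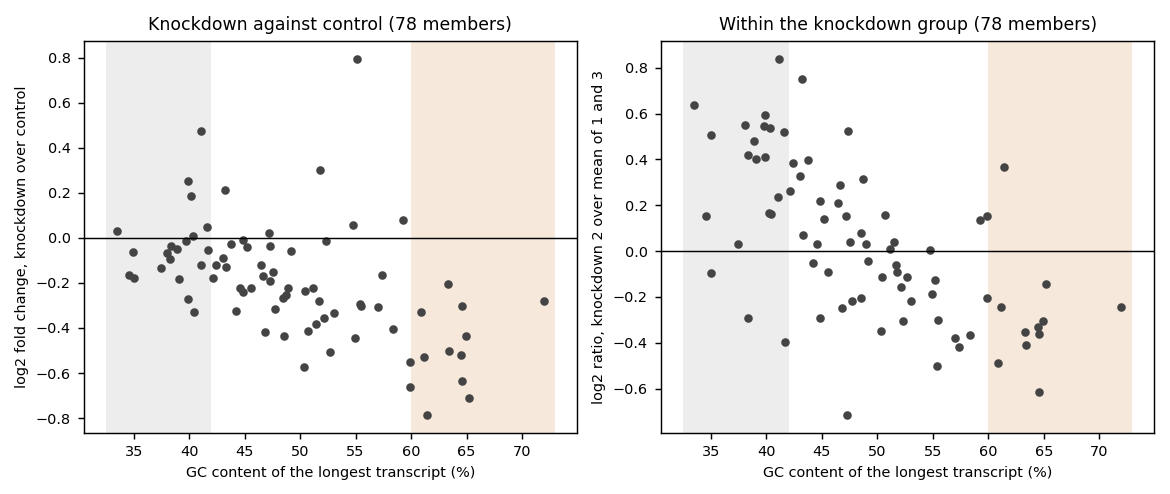
GC content of the longest transcript (%) against the log2 fold change (left) and against the log2 ratio of knockdown library 2 to the mean of knockdown libraries 1 and 3 (right), 1 point per member. Shaded bands mark under 42% and 60% and above; the members fall from left to right in both, with r of -0.49 and -0.62.

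Per unit of length, the members spanned a wide range of levels. By the mean of all 6 libraries on deposited TPM, MRPS15 was highest, at 211 ± 5.05 in controls and 222 ± 18.3 after knockdown (SD, n = 3). MRPL12, with 219 ± 6.14 and 207 ± 21.8, and MRPL28, with 202 ± 14.6 and 206 ± 26.3, came next. In controls alone MRPL12 was above MRPS15, and these 3 did not differ beyond their spread. The lowest were MRPL50, at 9.49 ± 0.147 and 10.7 ± 3.22, MRPL1, at 11.4 ± 0.198 and 12.3 ± 2.56, and MRPS14, at 10.8 ± 0.821 and 17.4 ± 7.00. The ratio of summed TPM of large to small subunit members was 2.17 ± 0.0377 in controls and 2.18 ± 0.0874 after knockdown (SD, n = 3), a difference smaller than the spread.

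**Figure D5:**
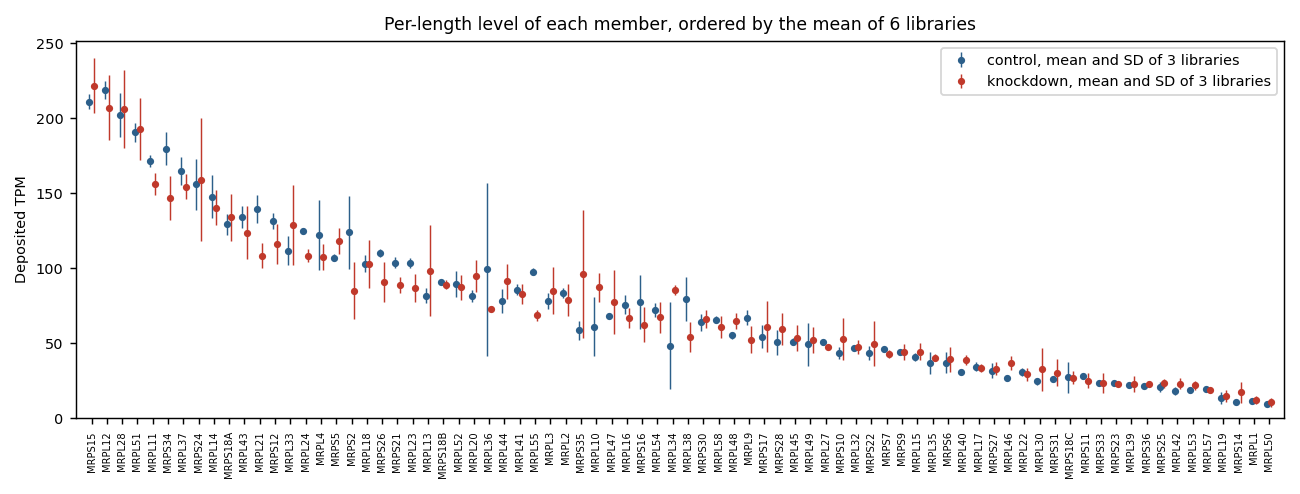
Deposited TPM of each member (mean and SD of 3 libraries per group), ordered by the mean of 6 libraries. In controls the levels run from MRPL12, at 219, to MRPL50, at 9.49, and the ranges of mean ± SD mostly overlap between groups.

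The ribosome also holds proteins with other names, and all 5 listed were below 0 (4 on TPM, where PTCD3 was above). Of these 0 passed the test and 4 were without overlap, where 10.8% of all tested genes were lower without overlap. DAP3 and AURKAIP1 were barely apart, AURKAIP1 at 73.3 CPM in knockdown library 1 and 73.7 in control library 1. GADD45GIP1, a large subunit protein first found through its binding to GADD45 proteins, had 92.0, 103 and 109 CPM in the controls and 87.2, 66.9 and 89.3 after knockdown (log2 fold change -0.32, edgeR adjusted p 0.323). DAP3, a GTP-binding small subunit protein, had 81.0, 108 and 81.2 against 80.6, 76.0 and 79.3 CPM. AURKAIP1, CHCHD1 and PTCD3, all of the small subunit, had log2 fold changes of -0.29, -0.26 and -0.17. Of the mitochondrial ribosomal RNAs, made inside the organelle, MT-RNR1 had 1167, 1450 and 1269 CPM in controls and 1387, 1290 and 1318 after knockdown (log2 fold change 0.040, edgeR adjusted p 0.887). Those groups overlapped. MT-RNR2 had 8341, 10012 and 8750 CPM against 8104, 10819 and 7859, also with overlap, and its log2 fold change of -0.017 was above 0 by library size alone and on TPM.

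Genes that assemble, drive or feed the ribosome gave 0 calls in 85 genes of 6 lists, the 5 subunits above included. Of all tested genes 1.17% passed. At an unadjusted p under 0.05 there were 9 of the 85, all on the lower side. The share of all tested genes at that threshold was 6.71% lower and 9.77% higher. DESeq2 called 1 of the 85, TIMM10, as lower, against 1.15% of its genes. Limma-voom called 0, against 1.16% of all genes. Of 26 assembly factors 19 were below 0, with a median of -0.11, against 9 and 0.094 on TPM. The ribosomal RNA methyltransferase gene MRM3 had 20.9, 21.7 and 20.4 CPM in controls and 17.2, 15 and 15.6 after knockdown (edgeR adjusted p 0.217). Of 17 translation factors 11 were below 0, with a median of -0.021, against 5 and 0.18 on TPM. Among them OXA1L, the insertase that receives new proteins in the inner membrane, had 124, 164 and 163 against 114, 111 and 108 CPM (edgeR adjusted p 0.187).

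Import genes had a median of -0.25, with 18 of 19 below 0, against 0.024 and 9 of 19 on TPM, where 17 of 19 lay below the median of all genes. TIMM10, a chaperone of the intermembrane space, had 31.1, 39.9 and 34.3 CPM in the controls and 17.8, 14.7 and 27.6 after knockdown (edgeR adjusted p 0.166). Mitochondrial transcription and DNA genes had a median of 0.051, with 4 of 10 below 0 (1 on TPM) and POLRMT at -0.27. Of 9 listed regulators of nuclear genes for mitochondria 8 were tested, and 7 were above 0 (8 on TPM). PPARGC1A did not pass the filter on low counts. Its raw counts were 6, 10 and 6 in the knockdown libraries and 0 in every control library, and it was named after these were seen. YY1 had 116, 109 and 151 CPM in the controls and 146, 164 and 145 after knockdown, with overlap (log2 fold change 0.27, edgeR adjusted p 0.405).

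Beside these, the 77 cytosolic ribosomal protein genes were all below 0, with a median of -0.43, and 0 passed the test; on TPM 73 were below 0 and the median was -0.22. The 38 nuclear complex I genes had a median of -0.40, with 35 below 0 and 1 past the test, and 31 below 0 on TPM with a median of -0.17. Of all tested genes 1.17% passed, 0.0735% falling. The member median of -0.20 lay between the medians of both lists and that of all genes. The difference between these groups was not tested.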

How the data were processed

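Total RNA of 6 PC9 libraries was sequenced on an Illumina platform, and reads were quality controlled, mapped and counted per gene by the authors, per the labels' protocols. Per gene, the authors deposited raw counts (whole numbers), TPM and FPKM, of which FPKM was not used. Aligner, counting program and strand setting: not given in the sources used here. hg19 is named in the submitters' processing notes, yet coordinates of 77 of 78 members (not MRPL28) equal those of GENCODE 29 on GRCh38, and gene coordinates are printed as deposited. Groups came from the labels.

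Counts were filtered with filterByExpr (minimum 10), scaled by TMM and tested with edgeR 4.0.16 (R 4.3.3), quasi-likelihood F-test, Benjamini-Hochberg adjustment over 19040 genes at 0.05. Standard errors were back-calculated from the F statistic. TPM were tested with limma 3.58.1 on log2(TPM + 1). The test was checked on simulated data. Libraries of a group differed by 33.4 to 83.2 chi-square per degree of freedom, so none was counted as the same. Transcript length and GC are those of the longest GENCODE 29 transcript. Promoter windows are from RefSeq, and 1 match is not reported here. Pseudogene rows named for a member numbered 67, and only those of MRPS31 reached 10% of the parent's counts (21.4%). Of 78 members 48 overlap another row of the table.

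The members and gene lists were chosen with earlier results of these data known. Named genes are the 12 members of lowest p, the 3 of highest fold change, the 3 highest and lowest on TPM, members fixed by role, 5 subunits of other names, the ribosomal RNAs and, from each other list, the gene of lowest p. Other genes were named after their values were seen: ABHD8 and those so marked in the text. Alternatives were other scalings, filters, DESeq2 1.42.0, limma-voom, a replicate block, removal of trends (lowess, span 0.3) and leaving out each library. TPM was chosen as an alternative after seeing the data. Figures were drawn with matplotlib 3.10.9.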

Additional observations from a re-analysis of the deposited data

How the results depend on the processing

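Of 41 named genes 18 kept their sign and their side of the threshold under all 17 alternatives, and 12 changed sign in at least 1. The count of members past the test, 0, was 5 with DESeq2 (all lower), 6 with GC and length trends removed (all lower) and 0 to 1 without 1 library, the 1 being MRPL34 without control library 1. Under the replicate block it was 0, with a member median of -0.21. The labels do not say whether same-numbered libraries were pairs. Their deviations correlated at 0.01, -0.08 and -0.03, which cannot settle it. The member median, -0.20, was -0.075 by library size only and 0.016 on TPM, where the medians of all genes were 0.17 and 0.21, and -0.26 to -0.15 without 1 library. Members lower in every knockdown library than in every control, 29, numbered 19 by library size only (5.52% of all genes), 11 on TPM (2.95%) and 29 to 45 without 1 library, where fewer libraries have to be in order and 13.2% to 19.6% of all genes were so ordered. The 45 were without knockdown library 2 (18.4% of all genes). The genes of the 6 other lists gave 1 call with DESeq2 and 1 with GC and length trends removed. In these fits 1.15% and 1.37% of all genes were called lower. Some log2 fold changes changed sign. On TPM these were MRPL1 0.084, MRPL28 0.024, MRPL45 0.058, MRPL50 0.12, MRPS15 0.067, MRPS18A 0.045, MRPS18C 0.041, MRPS30 0.049, MRPS36 0.054, MT-RNR2 0.20 and PTCD3 0.19. On TMM-scaled counts the same genes ran from -0.20 for MRPL28, at the member median, to -0.017 for MT-RNR2. By library size only the genes that changed sign were MRPL50 0.067, MRPS18C 0.080 and MT-RNR2 0.11. MT-RNR2 was at 0.0080 with the stricter filter and 0.45 with the abundance trend removed. Without 1 library MRPL50 ran from -0.26 to 0.072, MRPS18C from -0.24 to 0.16, MT-RNR1 from -0.035 to 0.13 and MT-RNR2 from -0.19 to 0.065. For DESeq2, the trends and the scalings the cause was not tested. Precision did not follow depth alone: MRPL1, at 8.08 CPM in knockdown library 1, had a standard error of 0.18, and the more abundant MRPS35 one of 0.27.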

Other observations

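MRPL36, a small large-subunit protein chosen here after its values were seen, had 22.1, 70.8 and 27.4 CPM in control libraries 1 to 3 and 26.1, 22.9 and 24.4 after knockdown. Its log2 fold change of -0.71 (standard error 0.39, edgeR adjusted p 0.403) goes with the high value of control library 2. Members are spread over 21 chromosomes, with 8 each on chromosomes 1, 2 and 17 and 7 on chromosome 11.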
